A study of Homo sapiens with 4 samples.

Results

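Small heat shock proteins and BAG co-chaperones were examined in MCF10A cells, a non-tumorigenic human breast epithelial line, through 8 genes chosen by name: HSPB1, CRYAB, HSPB8 and HSPB11, which carry small heat shock protein names, and BAG1, BAG2, BAG3 and BAG5. All 8 were found in a count table of 63856 genes and all 8 were among the 15830 genes that passed the filter on low counts. RNA-seq was performed on 2 libraries of wild type (WT) cells and 2 libraries of cells that stably overexpressed HSF1 from the lentiviral vector pLVX-Puro (HSF1-pLVX), described by the study as biological replicates. All cells grew in medium with horse serum, insulin, hydrocortisone, EGF and cholera toxin, and no heat treatment is named for these 4 libraries. The HSF1-pLVX cells had been selected with puromycin and the WT cells had not, and cells with the empty vector were not analysed here, so transduction, selection and HSF1 cannot be told apart. Whether the HSF1-pLVX cells were 1 clone or a pool is not stated in the sources used here.

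HSF1 is the transcription factor that switches on chaperone genes when proteins unfold. It binds heat shock elements, short DNA motifs built from GAA units that face each other. Small heat shock proteins, among which HSPB1 (HSP27) and CRYAB (αB-crystallin) are the best known, hold unfolding proteins without using ATP and keep them from clumping. They then pass these clients to HSP70, and BAG proteins, which share a BAG domain that grips HSP70, make HSP70 release its nucleotide and client. BAG1 steers clients to the proteasome and BAG3, which also binds HSPB8, steers them to autophagy, while BAG2 restrains the ubiquitin ligase STUB1. HSPB1 and CRYAB are common in epithelial and muscle cells, and HSPB11, in spite of its name, is the intraflagellar transport protein IFT25, a part of the machinery that builds cilia.

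The libraries held between 18688109 and 24184285 counts. HSF1 itself was at 200.4 and 189.2 CPM in WT cells and at 982.4 and 998.6 CPM in HSF1-pLVX cells, higher in both libraries labelled as overexpressing it. CPM are counts relative to the TMM-scaled library total over the tested genes. Transcripts of the vector and of the cells' own HSF1 gene are counted together here. All 10 mammary epithelial markers examined passed the filter, and their summed level was 16500 and 16400 CPM in WT against 8190 and 8600 CPM in HSF1-pLVX cells, with 4 higher and 6 lower where 65.9% of all tested genes were called. The markers moved apart: TP63, a basal transcription factor, rose from 9.688 ± 0.9899 to 107.9 ± 2.864 CPM (SD, n = 2 each), while the keratins KRT14 and KRT8 went from 530.2 ± 17.17 to 45.12 ± 2.377 and from 3165 ± 11.06 to 335.4 ± 67.19 CPM (edgeR, adjusted p = 5.08e-12, 4.12e-12 and 1.38e-10). Not all keratins fell. KRT5 rose from 2113 ± 35.87 to 4592 ± 421.8 CPM, while KRT17 and KRT18 fell (log2 fold changes 1.12, -2.56 and -1.73, edgeR, adjusted p = 1.03e-06, 2.74e-10 and 6.28e-09). These keratins were named after their values were seen. Of 14 markers of other cell types, 12 failed the filter, PTPRC and MYOD1 held 0 counts in every library, and the summed level ran from 9.06 to 11.8 CPM in WT and from 15.5 to 15.8 CPM in HSF1-pLVX cells. The only one called was DCN, a proteoglycan of stromal cells, with 1 and 3 counts in WT and 94 and 87 in HSF1-pLVX libraries (edgeR, adjusted p = 1.12e-07). The part of these shifts in the results on the 8 genes was not tested.

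The sequence before each gene start was searched for heat shock elements, since HSF1 is the gene that was introduced. RefSeq windows of 250 bases before the start (GRCh38.p14) were at hand for 7 of the 8 genes, the exception being CRYAB, with a pair of entries each for HSPB11 and BAG5. The 2-unit heat shock element was searched as GAANNTTC or TTCNNGAA, each of which reads the same on both strands, and the 3-unit element as GAA, TTC and GAA or TTC, GAA and TTC with 2 bases of any kind between units, on both strands, which contains the shorter one. The 2-unit element was found once each before HSPB1, HSPB8 and BAG2, beginning 182, 88 and 124 bases before the RefSeq start. The 3-unit element was found in the window of none of the 7. Below, capitals mark the 2-unit element, and each stretch lies on the plus strand and ends before the first counted base of its gene, except for HSPB8, whose 30 bases lie inside the counted span because the table's first exon begins 289 bases before the RefSeq start. BAG3, the most abundant BAG gene here, is shown as a window without the motif.
HSPB1, chr7:76302423-76302543: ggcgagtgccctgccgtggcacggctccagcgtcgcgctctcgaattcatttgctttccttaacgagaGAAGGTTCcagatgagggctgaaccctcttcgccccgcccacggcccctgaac
BAG2, chr6:57172076-57172325: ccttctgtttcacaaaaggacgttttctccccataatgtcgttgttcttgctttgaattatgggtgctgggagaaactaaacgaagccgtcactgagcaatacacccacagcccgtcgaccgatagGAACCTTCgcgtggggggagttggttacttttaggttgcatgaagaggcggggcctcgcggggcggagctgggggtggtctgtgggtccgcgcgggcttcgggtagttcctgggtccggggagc
HSPB8, chr12:119178832-119178861: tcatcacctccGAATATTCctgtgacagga
BAG3, chr10:119651130-119651369: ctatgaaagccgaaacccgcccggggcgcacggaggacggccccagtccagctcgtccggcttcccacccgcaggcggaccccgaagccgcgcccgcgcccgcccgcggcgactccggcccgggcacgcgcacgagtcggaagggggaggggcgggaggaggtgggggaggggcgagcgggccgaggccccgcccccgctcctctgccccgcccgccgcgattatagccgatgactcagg
Of all 35116 RefSeq windows of this length, 11.6% held the 2-unit and 0.441% the 3-unit element. Among 10596 tested genes with a window, the 1273 with the 2-unit element were called higher in HSF1-pLVX cells in 34.8% of cases and lower in 34.9%, against 33.4% and 35.4% of all 10596. The 3 genes with the element thus included the largest rise, BAG2, and the largest fall, HSPB8, of the 8.

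HSF1-pLVX cells were compared with WT cells to see how the genes of this chaperone branch stood when HSF1 was raised without a named stress. At an adjusted p of 0.05 (edgeR's quasi-likelihood test over all 15830 genes, Benjamini-Hochberg), 7 of the 8 genes were called, where 65.9% of all tested genes were called. HSPB1, CRYAB, HSPB11 and BAG2 were higher and HSPB8, BAG1 and BAG5 lower, that is 4 of 8 higher and 3 of 8 lower, against 32.7% and 33.2% of all tested genes. The family therefore did not move as a block, and 7 of 8 genes is few to set against a table in which most genes were called. BAG3 was not called. Only BAG2 (higher) and HSPB8 (lower) changed at least 2-fold, where 28.9% of all tested genes did so (14.9% higher, 14.0% lower). The median log2 fold change over all tested genes was 0.02.

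**Figure D1:**
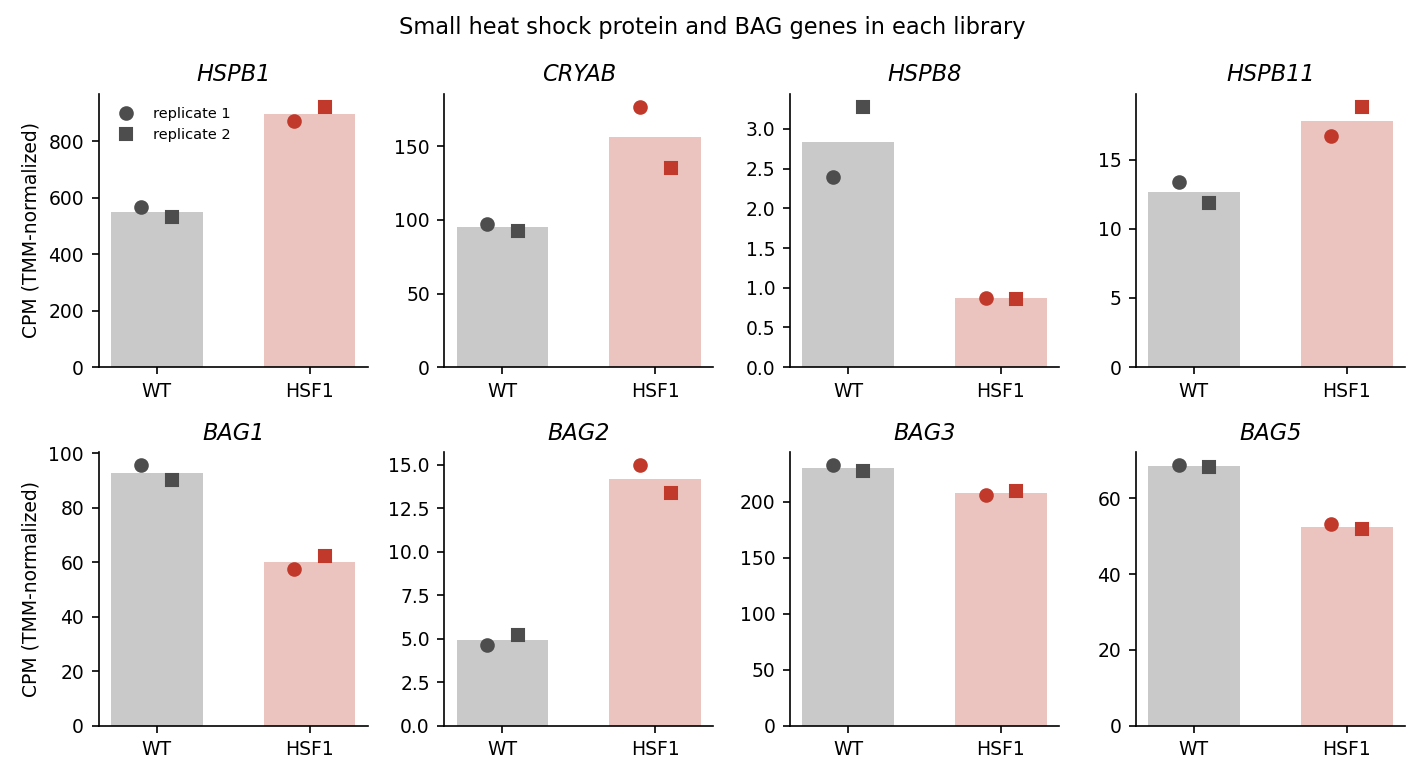
CPM of each of the 8 genes (vertical axes from 0, a scale of their own for each gene) in WT and HSF1-pLVX libraries, labelled WT and HSF1, with a circle for replicate 1, a square for replicate 2 and a bar for the mean. The libraries of the groups do not overlap for any gene, and the gap is widest for HSPB8 and BAG2 and narrowest for BAG3.

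HSPB1 (ENSG00000106211.8, chr7:76302544-76304295 of hg38), the phosphorylated small heat shock protein that also guards actin filaments, was at 565.3 and 530.4 CPM in WT replicates 1 and 2 and at 873.1 and 922.6 CPM in HSF1-pLVX replicates 1 and 2. Both HSF1-pLVX libraries lay above both WT libraries. The rise was 1.64-fold, 0.71 ± 0.0983 (SE) on the log2 scale (edgeR's quasi-likelihood test, adjusted p = 1.77e-05). HSPB1 ranked 84 among tested genes by level per kilobase in WT and 54 in HSF1-pLVX cells, so it was among the most abundant transcripts in both. A pseudogene of it on chromosome 9, HSPB1P1, held 13 and 16 counts in WT and 40 and 41 in HSF1-pLVX libraries, against at least 9854 for HSPB1. How reads that match both were counted is not stated.

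CRYAB (ENSG00000109846.7, chr11:111908565-111923722, minus strand), the small heat shock protein of lens and muscle that is also made in basal-type breast cells, was at 97.17 and 92.73 CPM in WT and at 177.0 and 135.5 CPM in HSF1-pLVX replicates 1 and 2. The groups did not overlap, but the HSF1-pLVX libraries differed 1.31-fold from each other, the widest gap between replicates in that group among the 8 genes. Its log2 fold change was 0.72 ± 0.113 (SE), a 1.65-fold rise (edgeR's quasi-likelihood test, adjusted p = 5.93e-05). The log2 fold change fell to 0.52 when HSF1-pLVX replicate 1 was left out, against 0.91 when replicate 2 was. HSPB2, a muscle small heat shock protein read from the opposite strand inside the counted span of CRYAB, held 2 or 3 counts in every library. The exons of CRYAB share 626 of 3034 bases, 20.6%, with those of HSPB2 and of the readthrough gene HSPB2-C11orf52, and whether the counting used strand is not stated.

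HSPB8 (ENSG00000152137.6, chr12:119178642-119221131), the partner of BAG3 in selective autophagy, went the other way. It was at 2.397 and 3.283 CPM in WT and at 0.8763 and 0.8557 CPM in HSF1-pLVX cells, from 45, 61, 22 and 17 counts. Both HSF1-pLVX libraries lay well below both WT libraries, and the WT libraries differed 1.37-fold. The fall was 3.26-fold, -1.71 ± 0.299 (SE) on the log2 scale (edgeR's quasi-likelihood test, adjusted p = 0.000163). The 95% interval, -2.35 to -1.06, is the widest of the 8 genes, and the counts behind it are the lowest. Only 7.12% of tested genes had a lower log2 fold change.

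HSPB11 (ENSG00000081870.11, chr1:53916574-53945929, minus strand), the intraflagellar transport protein, was at 13.37 and 11.89 CPM in WT and at 16.69 and 18.83 CPM in HSF1-pLVX cells. The rise was the smallest of the 4, 1.40-fold, or 0.49 ± 0.122 (SE) on the log2 scale (edgeR's quasi-likelihood test, adjusted p = 0.00272). Without HSF1-pLVX replicate 2 the log2 fold change was 0.41 and no longer called (edgeR, adjusted p = 0.0743). LRRC42, which starts 148 bases away on the opposite strand, had a log2 fold change of -0.04 and was not called (edgeR, adjusted p = 0.727).

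BAG2 (ENSG00000112208.11, chr6:57172326-57189833), which blocks STUB1, rose most. It was at 4.635 and 5.221 CPM in WT and at 14.98 and 13.39 CPM in HSF1-pLVX cells, from 87 and 97 against 376 and 266 counts. Its log2 fold change was 1.53 ± 0.147 (SE), a 2.88-fold rise (edgeR's quasi-likelihood test, adjusted p = 4.58e-07), and 7.35% of tested genes had a higher one. Of its 6651 exonic bases, 2842 are shared with RAB23, a GTPase gene on the opposite strand that was not called (log2 fold change -0.14, edgeR, adjusted p = 0.422). With the antisense gene ZNF451-AS1 added, 44.2% of its bases are shared, so the count of BAG2 is uncertain to the extent that reads there were dropped or split.

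BAG1 (ENSG00000107262.18, chr9:33247820-33264720, minus strand), the first BAG protein known and a binder of BCL2, fell. It was at 95.68 and 90.1 CPM in WT and at 57.48 and 62.37 CPM in HSF1-pLVX cells. The fall was 1.55-fold, -0.63 ± 0.0855 (SE) on the log2 scale (edgeR's quasi-likelihood test, adjusted p = 1.43e-05). CHMP5, an endosomal sorting gene that starts 159 bases away on the opposite strand, fell as well, with a change of -0.81 ± 0.0855 (SE) on the log2 scale (edgeR, adjusted p = 1.14e-06).

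BAG5 (ENSG00000166170.9, chr14:103556544-103562831, minus strand), which has several BAG domains and restrains HSP70 and parkin, was at 68.83 and 68.41 CPM in WT and at 53.26 and 51.85 CPM in HSF1-pLVX cells. The replicates lay closer together than for most of the 8 genes. The log2 fold change was -0.38 ± 0.0816 (SE), a 1.31-fold fall (edgeR's quasi-likelihood test, adjusted p = 0.00082). Across its start, APOPT1, 131 bases away on the opposite strand, had a log2 fold change of -0.08 and was not called (edgeR, adjusted p = 0.577). KLC1, a kinesin light chain gene whose start lies 935 bases away and whose span overlaps that of BAG5, fell, with a log2 fold change of -0.55 (edgeR, adjusted p = 9.15e-05).

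BAG3 (ENSG00000151929.9, chr10:119651370-119677819), which heat shock induces through HSF1 in many cells, was at 232.7 and 227.1 CPM in WT and at 205.6 and 209.1 CPM in HSF1-pLVX cells. The libraries of the groups did not overlap, as was so for all 8 genes (4 higher, 4 lower) and for 83.1% of all tested genes (42.1% higher, 41.0% lower). The log2 fold change of -0.15 had a 95% interval from -0.335 to 0.037 and did not pass the test (edgeR, adjusted p = 0.145). In this fit the interval leaves out a rise beyond 0.037 on the log2 scale. Other fits moved the value or widened its error, with -0.089 ± 0.079 (SE) for library size only and -0.149 ± 0.116 with the replicate block. The bound is therefore particular to the reported fit. BAG4, the other BAG gene that passed the filter and no member of the 8, was at 18.7 and 21.47 CPM in WT and at 20.43 and 18.47 CPM in HSF1-pLVX cells, with a log2 fold change of -0.04 that turned to 0.02 with library size as the only scaling (edgeR, adjusted p = 0.75 and 0.915).

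**Figure D2:**
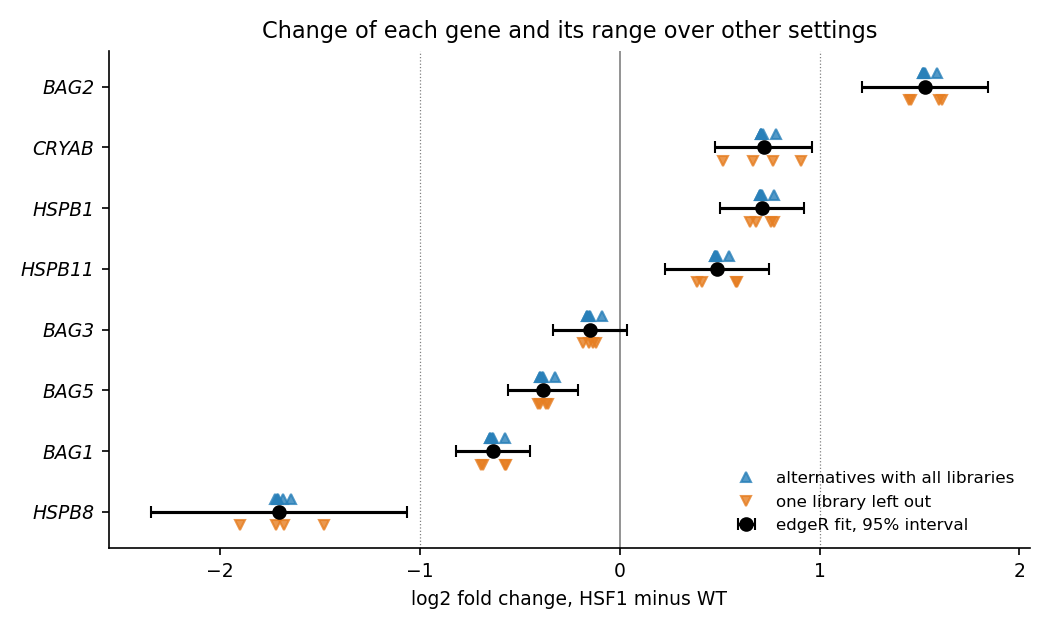
Log2 fold change of each gene, HSF1-pLVX minus WT, with its 95% interval from the edgeR fit (black), the values under 5 alternatives that keep all libraries (blue) and those with 1 library left out in turn (orange). Dotted lines mark a 2-fold change, and only BAG2 and HSPB8 lie beyond them, while BAG3 is the only gene whose interval spans 0.

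Compared per kilobase of exon (RPKM), the 8 genes spanned a wide range of levels. In WT cells the order was HSPB1 (335.3 ± 15.13, SD, n = 2), BAG3 (83.69 ± 1.433), CRYAB (31.3 ± 1.034), BAG1 (13.13 ± 0.5579), BAG5 (13.02 ± 0.05647), HSPB11 (3.904 ± 0.3227), HSPB8 (0.9931 ± 0.219) and BAG2 (0.7409 ± 0.0623). BAG1 and BAG5 overlapped between libraries and could not be ordered. In HSF1-pLVX cells the order was HSPB1 (549.5 ± 21.44), BAG3 (75.49 ± 0.9203), CRYAB (51.5 ± 9.665), BAG5 (9.97 ± 0.189), BAG1 (8.472 ± 0.4888), HSPB11 (5.488 ± 0.4668), BAG2 (2.132 ± 0.1688) and HSPB8 (0.3028 ± 0.005089), with no overlap between neighbours. The low end of the WT order depends on the length used. If all its reads came from the bases BAG2 shares with no other gene, its WT level would be 1.327 CPM per kilobase, above that of HSPB8. No reads were recounted for this.

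**Figure D3:**
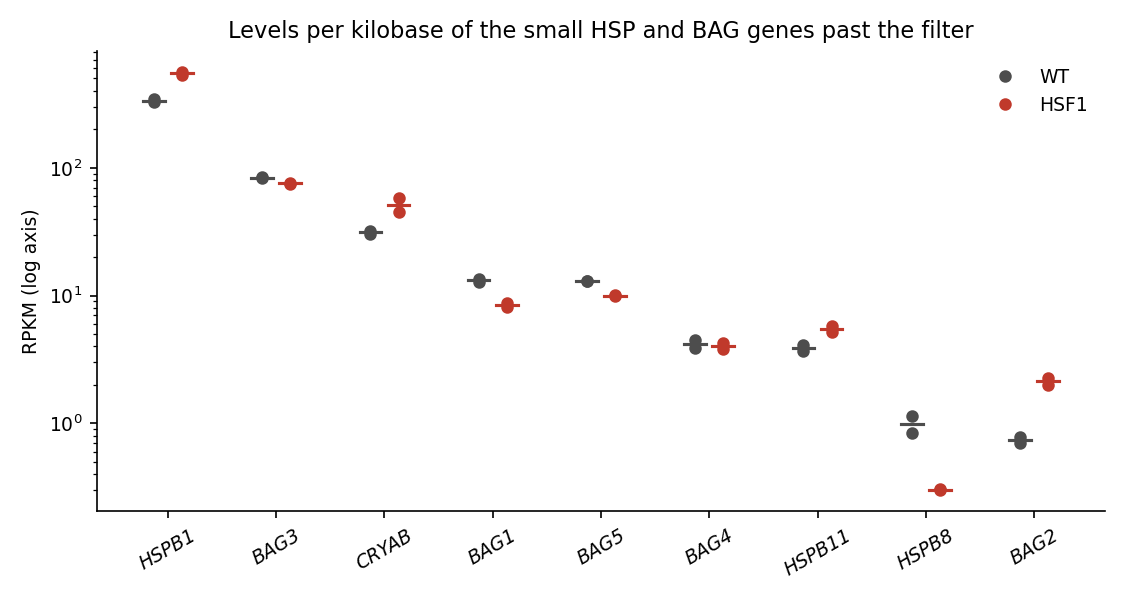
RPKM on a log axis of the 9 small heat shock protein and BAG genes past the filter, ordered by WT mean, with a point for each library and a line for each mean. HSPB1 is highest in both groups, at 335.3 in WT and 549.5 in HSF1-pLVX cells, and HSPB8 and BAG2 exchange their places.

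Within the family of 11 small heat shock protein genes, HSPB1 made up 90.3 and 90.1% of the summed RPKM in WT and 89.3 and 91.7% in HSF1-pLVX libraries, so its share was alike in both. CRYAB made up most of the rest, 8.36 and 8.49% in WT and 9.75 and 7.25% in HSF1-pLVX libraries. The summed RPKM was 383 and 360 in WT and 598 and 616 in HSF1-pLVX libraries. The other 7 genes of the family (HSPB2, HSPB3, CRYAA, HSPB6, HSPB7, HSPB9 and ODF1) did not pass the filter, with at most 7 counts in any library, and CRYAA and ODF1 held 0 counts throughout. These counts are too low to compare the groups at this depth.

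Among the 6 BAG genes, BAG3 made up 73.1 and 72.8% of the summed RPKM in WT and 75.2 and 75.6% in HSF1-pLVX libraries. The share of BAG2 went from 0.601 and 0.691% to 2.26 and 2.0%, and that of BAG1 from 11.7 and 11.2% to 8.16 and 8.76%. The ratio of BAG1 to BAG2 RPKM accordingly went from 19.4 and 16.2 to 3.61 and 4.38. The ratio of BAG3 to its partner HSPB8 went from 101 and 72 to 244 and 254, and that of HSPB1 to BAG3 from 4.08 and 3.93 to 7.14 and 7.42. These ratios are given without a test, since the smallest p of an exact permutation test is 0.33 with 2 libraries in each group. BAG6 held at most 3 counts in any library. The table also lists 5637 rows outside the main chromosomes, and how reads that match a gene and another copy of its region were counted is not stated, so this is not read as absence of BAG6.

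The genes that work with BAG3 in selective autophagy were taken as a list of 16, all tested. Of these, 10 were lower, 1 was higher and 5 were not called, where 33.2% of all tested genes were lower and 32.7% higher (65.9% called in all), with a median log2 fold change of -0.57 against 0.02 for all tested genes. With library size as the only scaling the split was 4 higher and 9 lower, where 5458 of all tested genes were higher and 4751 lower. The largest falls were AMOTL2, an angiomotin of the Hippo pathway, from 334.3 ± 4.732 to 48.09 ± 8.146 CPM (SD, n = 2 each, log2 fold change -2.79), SYNPO2, the actin adaptor that BAG3 binds in muscle, at -1.92, and the Hippo kinase LATS2 at -1.75 (edgeR, adjusted p = 8.32e-11, 0.000347 and 5.88e-10). SYNPO2 was low throughout, at 1.445 ± 0.06525 CPM in WT and 0.3806 ± 0.03126 in HSF1-pLVX cells. SQSTM1, on this list and not called, held only 42 and 38 counts in WT and 33 and 53 in HSF1-pLVX libraries. Counts this low limit what can be read from SQSTM1, and like BAG6 it is not read as absent or near absent. The fallen genes also included STUB1, the ubiquitin ligase that BAG2 restrains (log2 fold change -0.59, edgeR, adjusted p = 9.13e-05), the autophagosome protein gene MAP1LC3B (-1.23, adjusted p = 1.70e-08) and the BAG3 client genes FLNA and FLNC (-0.55 and -0.40). FLNA lost its call without HSF1-pLVX replicate 2, and FLNC without that library or with library size only. SYNPO, a relative of SYNPO2, was the gene that rose (log2 fold change 1.26, edgeR, adjusted p = 5.77e-08). The genes of this paragraph beyond the 3 largest changes were named after their values were seen.

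Of 10 genes of the HSP70 family, only some of whose proteins are bound by BAG domains, 7 were tested. Of these, 3 were higher, 1 was lower and 3 were not called, against 32.7% higher and 33.2% lower of all tested genes. The median log2 fold change was 0.18. With DESeq2's Wald test 2 were higher, and fewer were also called higher when WT replicate 2 or either HSF1-pLVX replicate was left out. HSPA6, 1 of the 3 called higher (edgeR, adjusted p = 0.0331), held only 51 and 30 counts in WT and 82 and 76 in HSF1-pLVX libraries. It was named after its value was seen. HSPA9, the mitochondrial HSP70, rose from 329.2 ± 16.73 to 685.3 ± 24.03 CPM, by 1.06 on the log2 scale (edgeR, adjusted p = 2.56e-07), and HSPA14 rose by 0.85 (adjusted p = 2.73e-05). HSPA5, the HSP70 of the endoplasmic reticulum, fell by 0.74 on the log2 scale (adjusted p = 1.71e-05). The main cytosolic HSP70, HSPA8, was at 2044 ± 153.9 CPM in WT and 1870 ± 8.392 in HSF1-pLVX cells, with a log2 fold change of -0.13 that was not called (adjusted p = 0.31). It was named for its role as the main BAG partner. HSPA1A and HSPA1B are listed at 0 in every library and, like BAG6, are not read as absent. Of 8 exchange factors for HSP70 outside the BAG family, 7 were tested, with 3 higher, 1 lower and 3 not called beside those same shares, and a median log2 fold change of 0.07. HYOU1, the gene not tested, held 1 count in each WT library and 0 in each HSF1-pLVX library. This gene was named after its values were seen and, like BAG6, is not read as absent. The gene called lower, SIL1, had a log2 fold change of -0.29 and lost its call without WT replicate 1, HSF1-pLVX replicate 1 or HSF1-pLVX replicate 2. It was named after its value was seen. The 3 that rose were HSPA4L, HSPH1 and GRPEL2, at 1.22, 0.75 and 0.58 (adjusted p = 6.05e-08, 3.98e-06 and 0.0003).

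HSPB1 is phosphorylated by MAPKAPK2 and its relatives, which p38 kinases switch on, and by protein kinase D. Of 10 such kinase genes, all tested, 5 were higher, 3 lower and 2 not called, against 65.9% called of all tested genes, with a median log2 fold change of 0.17, and without HSF1-pLVX replicate 2 the number higher was 3. The p38 genes did not move together. MAPK13 fell from 110.1 ± 4.503 to 43.36 ± 3.517 CPM (log2 fold change -1.34, edgeR, adjusted p = 9.72e-09) and MAPK12 rose from 11.19 ± 0.7627 to 22.94 ± 1.798 CPM (1.03, adjusted p = 2.54e-06). MAPK14 was not called (0.03, edgeR, adjusted p = 0.753) and MAPK11 rose (0.49, adjusted p = 0.00368), both named after their values were seen. Which p38 kinases act on HSPB1 in these cells was not tested. MAPKAPK3 fell by 1.05 on the log2 scale (adjusted p = 1.52e-07). MAPKAPK2, named after its values were seen, went from 161 ± 15.57 to 94.4 ± 1.401 CPM (-0.77, adjusted p = 4.37e-06).

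HSPB11 belongs to the IFT-B complex, which carries cargo into cilia. Of 16 other genes of this complex, all tested, 11 were higher, 0 lower and 5 not called in edgeR's test, against 32.7% higher, 33.2% lower and 65.9% called in all of all tested genes, with a median log2 fold change of 0.51. At an unadjusted p under 0.05, 13 were higher and 1 was lower, but the share of all tested genes at that threshold was not counted. DESeq2's Wald test called 7 higher and 0 lower, where it called 4129 of all tested genes higher and 4540 lower. Without HSF1-pLVX replicate 2 fewer were called higher by edgeR, and the median log2 fold change was 0.52. The largest rises were IFT81, IFT172 and TTC26, with log2 fold changes of 1.25, 1.204 and 1.06 (edgeR, adjusted p = 2.31e-06, 2.42e-07 and 3.17e-05). IFT27, the small GTPase with which HSPB11 forms a pair, rose from 8.7 ± 0.4291 to 11.53 ± 0.1446 CPM, by 0.41 on the log2 scale beside the 0.49 of HSPB11 (edgeR, adjusted p = 0.0142), and was named for this pairing. Its call was lost with DESeq2's Wald test and without HSF1-pLVX replicate 1, WT replicate 2 or HSF1-pLVX replicate 2.

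**Figure D4:**
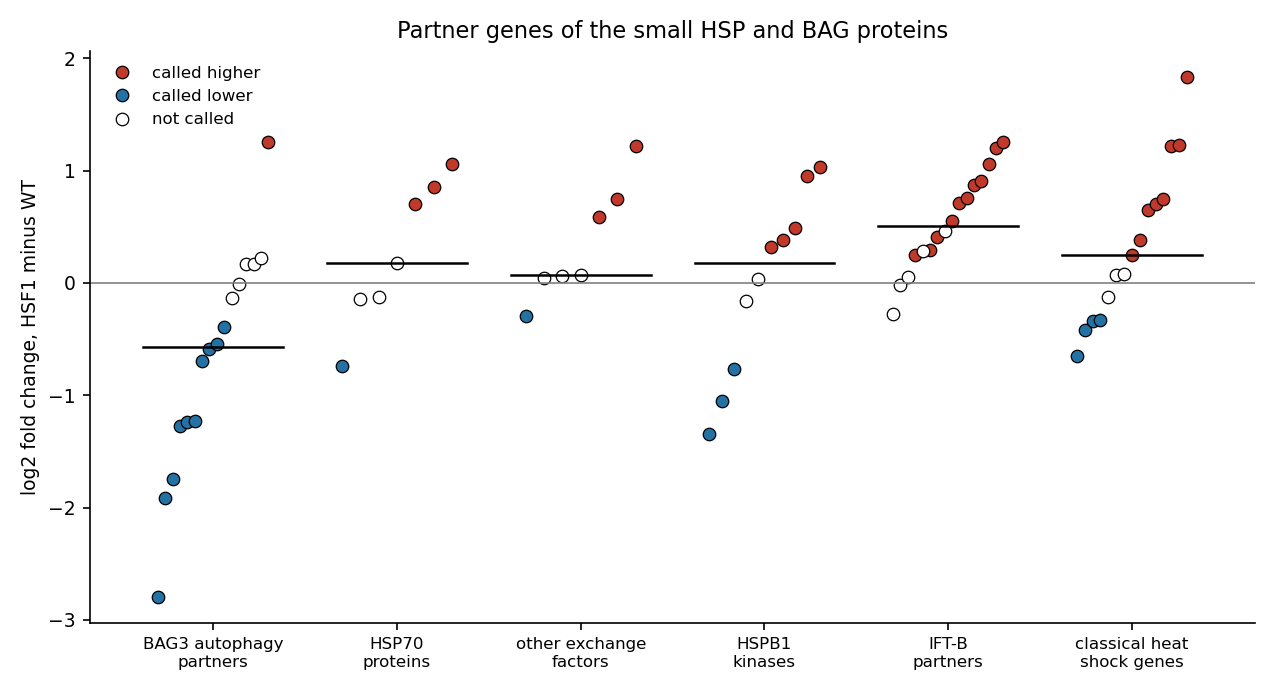
Log2 fold change, HSF1-pLVX minus WT, of every tested gene in 6 lists of partner and related genes, with red for called higher, blue for called lower, white for not called and a line for each list's median. The BAG3 autophagy partners have the lowest median (-0.57) and the IFT-B partners the highest (0.51), and every list holds genes on both sides of 0.

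Classical heat shock genes outside the small heat shock protein and BAG families were also split. Of 17 listed, 15 were tested, and 8 were higher, 4 lower and 3 not called, where 65.9% of all tested genes were called, with a median log2 fold change of 0.25, and without HSF1-pLVX replicate 2 the number lower was 2. The largest rises were the mitochondrial chaperonins HSPD1, from 169 ± 2.864 to 603.3 ± 16.94 CPM (log2 fold change 1.84, edgeR, adjusted p = 6.97e-10), and HSPE1 (1.23, adjusted p = 5.06e-08), followed by HSPA4L. Those that fell included HSP90AA1, DNAJB1 and UBB, with log2 fold changes of -0.65, -0.34 and -0.33, named after their values were seen. DNAJB1 lost its call without HSF1-pLVX replicate 2, and UBB without that library or WT replicate 1. The rises of HSPB1 and CRYAB, at 0.71 and 0.72, lie beside those of HSP90AB1 and AHSA1, at 0.70 and 0.65 and likewise named after their values were seen, and the value of BAG3, -0.15, beside that of HSPA8, -0.13. This list shares HSPA1A, HSPA1B, HSPA8, HSPH1 and HSPA4L with the lists of HSP70 genes and exchange factors.

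The patterns over the 4 libraries most like those of the extreme genes were sought by Euclidean distance between log2(CPM + 1) values centred on each gene's mean. The 3 nearest genes to BAG2 were EZH2, KIAA0922 and KCNH3, at distances of 0.0288, 0.036 and 0.0604. Their log2 fold changes were 1.41, 1.47 and 3.63, beside 1.53 for BAG2. KCNH3 was at only 0.1065 and 0.2153 CPM in WT, where the 1 added to CPM shrinks the distance. EZH2, the histone methyltransferase, went from 10.33 and 11.46 CPM in WT to 30.39 and 27.38 CPM in HSF1-pLVX replicates 1 and 2, with the first WT and the second HSF1-pLVX library the lower of its pair, as for BAG2. Those nearest to HSPB8 were B3GNT4, GPR160 and RHOQ, at 0.00618, 0.047 and 0.0507. Their log2 fold changes were -1.33, -1.40 and -1.05, beside -1.71 for HSPB8. HSPB8 itself was at only 0.8763 and 0.8557 CPM in HSF1-pLVX libraries, where the 1 added to CPM shrinks its change. A small distance to it therefore does not mean an equal fold change. With 4 libraries and 15830 genes such distances only describe the libraries.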

How the data were processed

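RNA-seq of 4 libraries, 2 of WT and 2 of HSF1-pLVX MCF10A cells, was analysed, with samples grouped by the labels. The count table that the authors deposited is not normalized and came from paired-end reads of rRNA-depleted RNA aligned to hg38 with HISAT2 2.0.5, handled with SAMtools 1.13 and counted with featureCounts 1.6.5. Strand, overlap and multi-mapping settings are not stated. Their second table holds deposited log2-like values normalized with DESeq2 1.32.0, used only for the study's rule, which asks each replicate for a ratio beyond 2 or 0.5.

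Counts were tested as deposited with edgeR 4.0.16 in R 4.3.3 (TMM, filterByExpr, quasi-likelihood test on the group, Benjamini-Hochberg adjustment over 15830 genes, threshold 0.05). Without a block, the test sets the group difference against the spread between replicate libraries, moderated over genes. Whether the replicates came from separate transductions is not stated, so the p-values are not read as covering variation between transduced lines. The libraries totalled 18688109 to 24184285 raw counts. CPM used each library's total over the 15830 genes past the filter times its TMM factor (0.9635 to 1.0398), and RPKM the table's gene lengths. Identifiers took GENCODE 44 symbols, or the older symbol of the authors' table where RefSeq lists it (14522 of the tested genes). HSPB11 is IFT25 in the newer annotation. The fit was tested on simulated counts of 15413 genes, where it recovered 96% of 2-fold changes, with 4.39% of calls false. Only 200 genes were changed there, equally up and down, all at higher mean counts than HSPB8 and with the same dispersion for every gene. The simulation therefore cannot tell how the fit does at low counts or where 65.9% of genes are called.

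The 8 genes and all lists were chosen with earlier results of these data known. Beside the 8 genes, the text names the other family genes, neighbours by position, the 3 largest called changes of each list, and the genes nearest in pattern. Genes named outside this rule are marked as such. DESeq2 1.42.0, other scalings, no filter, a replicate block and each library left out were tried as alternatives.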

Additional observations from a re-analysis of the deposited data

How the results depend on the processing

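Over 5 alternatives that keep all libraries (RLE scaling, library size only, no filter, DESeq2's Wald test, the replicate block), the 8 genes and HSF1 kept their direction and their side of the threshold, and the counts of 4 genes higher and 3 lower did not change. With the replicate block, the log2 fold change was 1.53 for BAG2 and the count of all tested genes called was 5138 higher and 5171 lower. The numbers share no stated culture or day, and the correlation of same-numbered deviations was -0.0288, so the block was not used in the reported fit. With 1 library left out in turn, where the lone library is assumed to vary like the others, the number of the 8 genes called higher was between 3 and 4 and called lower 3. HSPB11 lay between 0.388 and 0.589 and lost its call without HSF1-pLVX replicate 2 (edgeR, adjusted p = 0.0743). CRYAB lay between 0.518 and 0.908 and HSPB8 between -1.90 and -1.48. The study's ratio rule on the deposited values was passed by BAG2 upwards and HSPB8 downwards, the genes past 2-fold in edgeR. Of 17134 rows above the lowest deposited value in any library, 14.9% passed that rule in either direction. With a log2 fold change beyond 1 added, 2358 of all tested genes were higher and 2218 lower. Library size alone moved the median of all tested genes to 0.08. The keratin genes KRT5, KRT17 and KRT18 and the kinase genes MAPK11 and MAPK14 were not followed gene by gene over the alternatives. Among 48 other named genes followed over the alternatives, which leave out HSPA6 and SQSTM1, 412 of 432 values kept direction and call. Of the rest, 13 lost their call with direction kept (SIL1, FLNA, FLNC, IFT27, DNAJB1 and UBB) and 7 reversed, none with a call in either fit: BAG4 (0.017 with library size only, 0.042 without WT replicate 2 and 0.035 without HSF1-pLVX replicate 2, range with a library left out -0.126 to 0.042), LRRC42 (0.025 with library size only and 0.044 without WT replicate 1, range -0.118 to 0.044), ZNF451-AS1 (-0.006 without WT replicate 1, range -0.006 to 0.86) and APOPT1 (0.006 without WT replicate 2, range -0.154 to 0.006). Of the lists, the IFT-B genes called higher fell from 11 to 7 with DESeq2's Wald test and to 7 without HSF1-pLVX replicate 2, the BAG3 partners called higher went from 1 to 4 with library size only, the HSPB1 kinases called higher from 5 to 3 and the heat shock genes called lower from 4 to 2 without HSF1-pLVX replicate 2. Calls were also fewer over all tested genes in those fits, at 4129 higher and 4540 lower with DESeq2 and 3783 higher and 3846 lower without HSF1-pLVX replicate 2, from 5175 and 5253. The HSP70 genes called higher went from 3 to 2 with DESeq2's Wald test. They were also fewer without WT replicate 2 and without either HSF1-pLVX replicate. The cause of these drops was not tested. Depth limits HSPB8, at 17 to 61 counts, most of all.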
